A study of Mus musculus with 8 samples.

Results

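Gene expression was followed along an imposed order of 3 groups of mouse embryonic stem cells (ESCs) that carry a reporter of the 2-cell-like state. The order runs over 6 of the 8 bulk RNA-seq libraries of the series, 2 per group: untreated 2C::GFP+ cells were given the score 0, 2C::GFP+/SGC cells the score 1 and 2C::GFP+/SA cells the score 2. The 2 libraries of untreated ESCs labelled mESC lie outside the order. The 2C::GFP+/SGC cells were grown with 2 µM SGC0946, an inhibitor of the histone H3 lysine methyltransferase DOT1L, in a serum replacement medium with 10 ng/ml LIF. The 2C::GFP+/SA cells were given 2 µM SGC0946 together with 2 µM AS8351, a compound that the study uses against the histone demethylase KDM5B, and 10 ng/ml of IL6 with its soluble receptor in place of LIF. The second step of the order therefore changes a compound and a cytokine at once, and their parts in it cannot be told apart. The scores are ranks and not doses. All 3 groups carry the reporter genotype. The labels name 2 media for ESCs, both with LIF, and say neither which of them the untreated cells had nor whether cells were sorted on the reporter. The 2C::GFP+ columns were assigned by elimination, because their names match no group label, and every first step rests on that assignment. Nothing in the labels says that replicates came from separate cultures, so the p-values measure the spread between these libraries, which may be technical.

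A small share of mouse ESCs passes at any time through a state that resembles the 2-cell embryo. In it the transcription factor DUX switches on the Zscan4, Tcstv and Usp17 families, Zfp352 and endogenous retroviruses, while several pluripotency proteins fall. LIF and IL6 both signal through the receptor subunit gp130 and STAT3, and DOT1L places a methyl mark on the bodies of transcribed genes. In bulk RNA a change in the number of cells in a state and a change in RNA per cell cannot be told apart.

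The replicate 1 libraries held 126660609 counts (2C::GFP+), 133694657 counts (2C::GFP+/SGC) and 96895327 counts (2C::GFP+/SA), and the replicate 2 libraries 16474223, 13902619 and 12299931 counts in the same order. Replicate 1 was thus 7.69 to 9.62 times as deep as replicate 2 within a group. The ESC markers Pou5f1, Nanog, Sox2 and Esrrb stood between 246 and 874 CPM (read counts scaled to library size after TMM normalization) in all 6 libraries, so the label of ESCs holds by these genes. Zscan4c, a marker of the 2-cell-like state, stood at 155 and 204 CPM in 2C::GFP+ libraries, against 0.695 and 1.52 CPM in mESC libraries. In a principal component analysis the first component held 81% of the variance and ordered the groups as the scores do: 2C::GFP+ libraries at -36.84 and -36.34, 2C::GFP+/SGC libraries at -11.47 and -14.61, and 2C::GFP+/SA libraries at 58.29 and 40.96. The 2C::GFP+/SA replicates lay farthest apart.

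Of 20043 tested genes, 5057 (25.2%) had a linear trend over the 3 groups at an adjusted p under 0.05 in edgeR's quasi-likelihood test with Benjamini-Hochberg adjustment. Of these, 2852 rose (14.2% of the tested genes) and 2205 fell (11%). These shares come from the fit with all 6 libraries. They do not apply to list counts given below with a library left out, because the counts over all tested genes changed as well. The second step by itself, 2C::GFP+/SA against 2C::GFP+/SGC, was called in 3087 genes (15.4%), 1589 higher (7.93%) and 1498 lower (7.47%). The first step, 2C::GFP+/SGC against 2C::GFP+, was called in 0 genes (0%). At an unadjusted p under 0.05 the first step held 2147 genes, its smallest adjusted p was 0.151, and the calls by other tools were 346 (DESeq2) and 0 (limma, log2 TPM). The zero also depended on other settings: 534 genes were called with no low-count filter, 448 with 2C::GFP+/SA replicate 1 left out and 456 with 2C::GFP+/SA replicate 2 left out. The trend counts depended on single libraries: 2679 genes were called on leaving out 2C::GFP+/SA replicate 1, 3110 on leaving out 2C::GFP+/SA replicate 2 and 3116 on leaving out 2C::GFP+ replicate 1. The second step held 866 genes with 2C::GFP+/SGC replicate 1 left out and 1237 with 2C::GFP+/SGC replicate 2 left out.

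A called trend does not mean an even climb. With 2 libraries in each group the slope rests mainly on the outer groups, and a gene that moves at a single step can carry a called trend. The course of a gene was therefore read from its estimated steps among the 4736 genes (23.6%) that differed among the 3 groups in a test without direction. A course was named steady where both steps had the same sign and the smaller was at least 0.3 times the larger, early or late where the other step was under 0.3 times the main one, and turning back where the steps had opposite signs at a ratio of at least 0.3. By this rule 2591 genes (12.9% of the tested) were steady, 1851 (9.24%) moved late, 115 (0.574%) moved early and 179 (0.893%) turned back. Of the late movers, 863 rose (4.31%) and 988 fell (4.93%), and the trend was called in 698 of these rises and 745 of these falls. Without 2C::GFP+ replicate 1 the steady genes numbered 1090 and the late genes 1118, and without 2C::GFP+ replicate 2 they numbered 1711 and 1059. The course is a reading of point estimates, and both steps share the 2C::GFP+/SGC libraries, so an error in the middle group moves the steps in opposite ways. Just inside the limit of 0.3, up to 0.4, lay 495 genes with steps of the same sign, and just outside it, down to 0.2, lay 527.

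**Figure D1:**
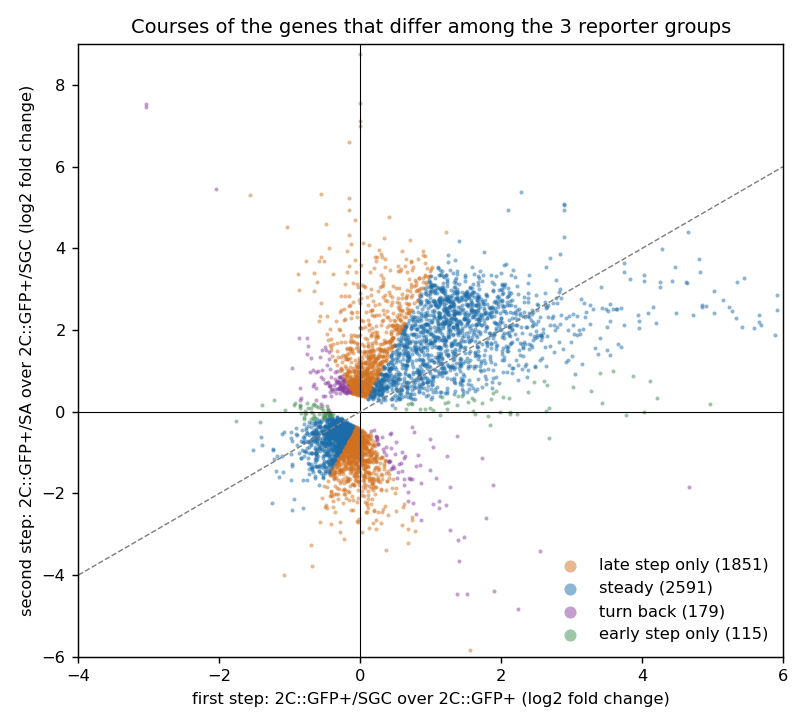
Each point is 1 of the genes that differed among the 3 groups, with the first step (2C::GFP+/SGC over 2C::GFP+, log2 fold change) on the horizontal axis and the second step (2C::GFP+/SA over 2C::GFP+/SGC, log2 fold change) on the vertical axis. Colours give the course, the dashed line marks equal steps, and 13 genes lie outside the axes. Steady rises spread to far larger steps than steady falls, and late movers line the vertical axis in both directions.

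The 1578 steady rises (7.87% of the tested genes) and the 1013 steady falls (5.05%) had different features. The rises had median steps of 1.24 and 1.90 (log2) and a median level of 3.18 CPM, and 65.3% of them were protein-coding, against 77.6% of all tested genes. Predicted gene models made up 29.7% of the steady rises and 16.8% of all tested genes, and 26 of the 74 tested olfactory receptor genes were among them. The falls had median steps of -0.34 and -0.53 and a median level of 51.5 CPM, and 96.3% of them were protein-coding. The 2C::GFP+/SA libraries disagreed in the steady rises, where replicate 1 exceeded replicate 2 by a median of 0.52 (log2), against 0.01 in the steady falls and 0.06 over all tested genes. Low levels, predicted models and the gap between the 2C::GFP+/SA libraries thus moved with the steady rises, and their part in the count was not tested. All 6 libraries stood in the order of the groups, with no overlap between neighbours, in 1288 of the steady rises and 901 of the steady falls. Over all tested genes the same order was seen in 2028 rising genes (10.1%) and 1967 falling genes (9.81%).

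**Figure D2:**
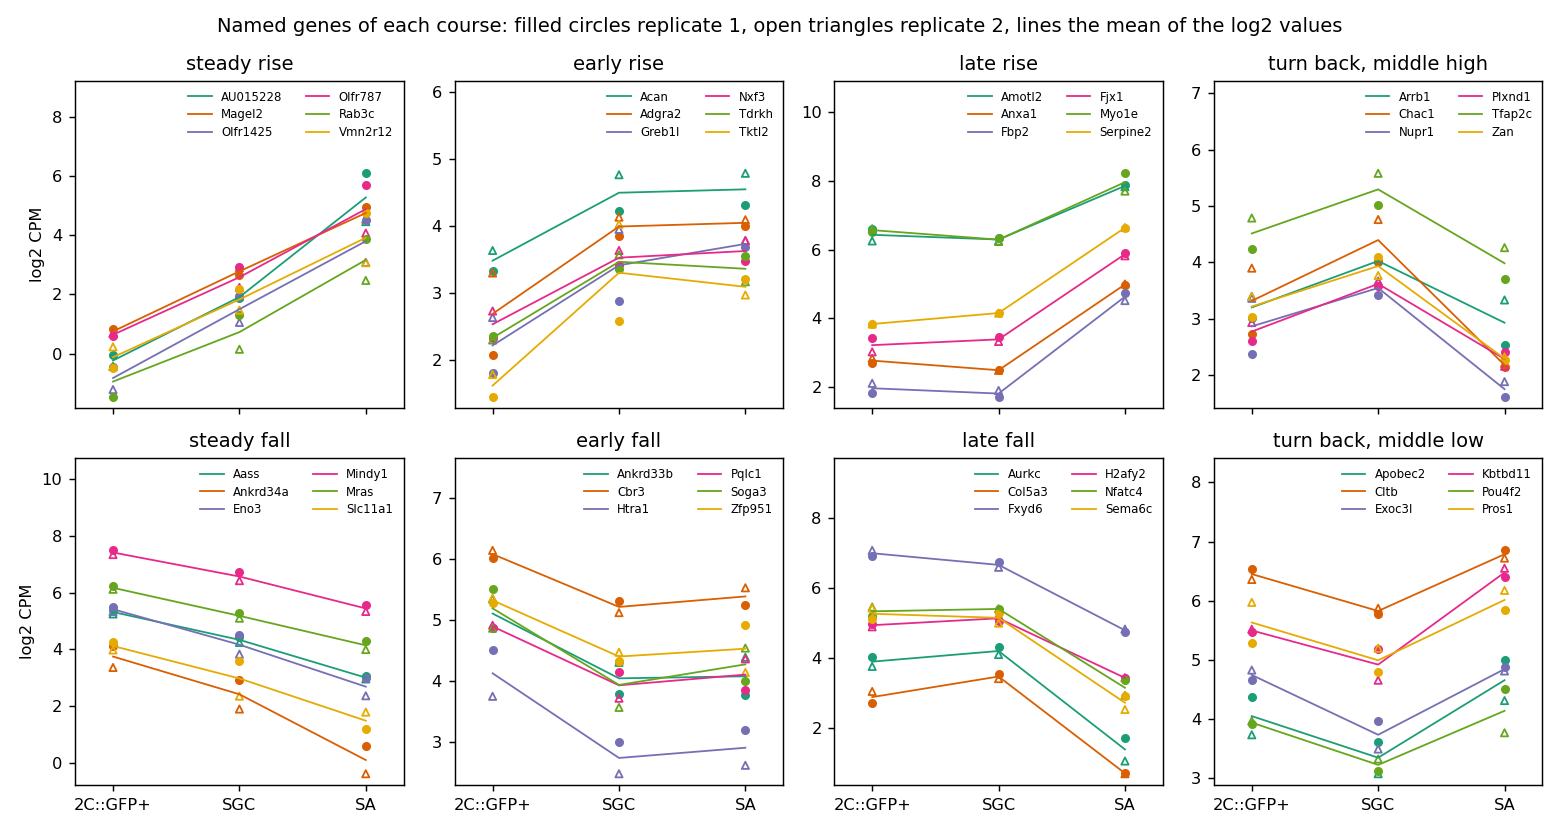
Log2 CPM in each library (filled circles replicate 1, open triangles replicate 2) of the genes named for each of 8 courses, with 2C::GFP+, 2C::GFP+/SGC (SGC) and 2C::GFP+/SA (SA) from left to right and lines through the mean of the log2 values. Steady genes climb or descend at both steps, late genes make most of their move at the second step and early genes at the first.

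Magel2, an imprinted gene whose MAGE protein assists ubiquitin ligases (GRCm38 chr7:62377010-62381640, protein-coding), climbed evenly. It had 1.77 and 1.60 CPM in 2C::GFP+ libraries, 6.30 and 7.47 CPM in 2C::GFP+/SGC libraries and 30.98 and 23.4 CPM in 2C::GFP+/SA libraries. The groups did not overlap, as the rule for naming required, and mESC libraries held 0.132 and 0 CPM. Its first step was 2.00 ± 0.26 and its second 2.00 ± 0.24 (log2, SE), and its slope of 2.00 ± 0.13 per step had an adjusted p of 0.000162. Rab3c, a small GTPase of vesicle release, had 0.365 and 0.740 CPM in 2C::GFP+, 2.47 and 1.11 CPM in 2C::GFP+/SGC, and 14.5 and 5.55 CPM in 2C::GFP+/SA. Its 2C::GFP+/SA libraries, like those of the 4 other genes named here, lay more than 2-fold apart with replicate 1 higher. AU015228, annotated as a processed pseudogene, had the largest slope of the 6, 2.88 ± 0.31 per step, with 68.1 and 22.0 CPM in 2C::GFP+/SA. The olfactory receptor genes Olfr1425 and Olfr787 and the vomeronasal receptor gene Vmn2r12 completed the set, with slopes of 2.32, 2.25 and 2.18 per step. Of the transcript sequence of Olfr1425, Vmn2r12 and AU015228, 49.5%, 35.9% and 18.7% of 31-base words also occur in other genes. Their counts are therefore uncertain.

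Genes of the 2-cell-like state were mostly steady risers. Of 47 genes listed, 40 were tested, and 33 of these rose and 3 fell along the order, where 14.2% and 11% of all tested genes did. Of the 28 that differed among the 3 groups, 25 had a steady course and 3 a late one. The median steps over the tested members were 1.13 and 2.19 (log2), against 0.01 and 0.00 over all tested genes. The summed level of the list was 2260 and 2610 CPM in 2C::GFP+ libraries, 4260 and 4200 CPM in 2C::GFP+/SGC libraries, and 22400 and 8960 CPM in 2C::GFP+/SA libraries. Every group lay apart from its neighbour, and the 2C::GFP+/SA libraries lay far apart from each other. Without 2C::GFP+/SA replicate 1 the median second step was 1.31 and 31 members rose. The cells were named for this state, so the list is no independent evidence of direction.

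Duxf3, which encodes the factor DUX, had 4.69 and 5.18 CPM in 2C::GFP+, 9.15 and 13.6 CPM in 2C::GFP+/SGC, and 73.3 and 76.6 CPM in 2C::GFP+/SA. It rose by 1.99 ± 0.18 per step (adjusted p = 0.000498), with steps of 1.19 and 2.75, and its 2C::GFP+/SA libraries were close together. Zfp352, a zinc finger gene of the 2-cell embryo, had 6.86 and 4.93 CPM, then 22.1 and 16.2 CPM, then 192 and 79.8 CPM along the same order, a slope of 2.26 ± 0.25 (adjusted p = 0.00227). Zscan4c, of a family linked to telomere upkeep, had 155 and 204 CPM, then 353 and 378 CPM, then 1740 and 637 CPM, a slope of 1.37 ± 0.23 (adjusted p = 0.00771). Zscan4c did not pass the 3-group test (adjusted p = 0.0526), and 91.5% of its 31-base words are shared with other genes, as are 60.3% of those of Duxf3. The shared part is 51% for Tcstv3, 28.6% for Tcstv1 and 21.5% for Zfp352. Tcstv3 reached 507 CPM in 2C::GFP+/SA replicate 1 and 103 CPM in replicate 2. Its trend (adjusted p = 0.0235) was not called without 2C::GFP+ replicate 1, where the slope was 2.24. The same held for Tcstv1 (adjusted p = 0.0131 with all libraries), with a slope of 2.05 without that library. With all libraries both calls were also lost with no low-count filter, at 0.0801 for Tcstv3 and 0.0766 for Tcstv1. That of Tcstv3 was lost with a linear contrast of the 3 group means as well (0.0715). Ubtfl1, a preimplantation gene related to the ribosomal transcription factor UBTF, had 13.9 and 15.8 CPM, then 38.4 and 36.8 CPM, then 226 and 111 CPM, a slope of 1.76 ± 0.17 per step. Btg2, an antiproliferative gene, had 29.0 and 27.1 CPM, then 42.4 and 41.2 CPM, then 135 and 132 CPM. Its slope was 1.13 ± 0.11, with its libraries close together in each of these groups. The mESC libraries held 71.9 and 85.6 CPM of Btg2, above those of 2C::GFP+ and 2C::GFP+/SGC. Zfp710 ran against the list, with a slope of -0.49 ± 0.08.

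The promoters at hand for each course were searched for letters bound by factors of the design, because the second step exchanges LIF for IL6 and its receptor. The RefSeq table (GRCm38.p6) gives 250 bases before and 50 after each start and matched 117 of the 151 genes considered by name. It held a promoter for 839 of 1578 steady rises, 788 of 1013 steady falls, 583 of 863 late rises and 735 of 988 late falls. Over all tested genes it did so for 13024 of 20043. The other genes were not searched, and the shares below are of genes with a promoter. The DUX motif was found for 0 genes of each course and for 0.0154% of all tested genes. The letters TTCCNGGAA, bound by STAT proteins, were found for 5 steady rises (0.596%) and 13 steady falls (1.65%). They were found for 4 late rises (0.686%) and 6 late falls (0.816%), against 1.44% of all tested genes. The core letters ACGTGC of hypoxia-inducible factors were in 6.2%, 9.01%, 8.4% and 11.3% of the same courses, against 8.96%. Each was searched on both strands. The letters are a description of the window and show no binding. Among the genes considered, the STAT letters occur in the promoters of a steady riser, Duxf3 (chr10:58233040-58233339, minus strand), and a gene that turned back, Pros1 (chr16:62854057-62854356, plus strand), given here with the match in capitals.
Duxf3: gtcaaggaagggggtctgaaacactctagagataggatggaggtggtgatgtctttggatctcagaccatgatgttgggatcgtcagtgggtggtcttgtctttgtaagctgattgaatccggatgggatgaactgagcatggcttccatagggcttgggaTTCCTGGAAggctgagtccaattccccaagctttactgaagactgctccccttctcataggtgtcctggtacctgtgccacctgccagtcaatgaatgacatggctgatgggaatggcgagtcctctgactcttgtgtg
Pros1: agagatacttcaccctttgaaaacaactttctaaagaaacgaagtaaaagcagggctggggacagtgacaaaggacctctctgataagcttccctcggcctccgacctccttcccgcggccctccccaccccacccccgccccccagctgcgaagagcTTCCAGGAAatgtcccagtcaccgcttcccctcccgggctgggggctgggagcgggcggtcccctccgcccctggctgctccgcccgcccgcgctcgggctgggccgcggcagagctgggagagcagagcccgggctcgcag

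Of 29 germ cell and meiosis genes tested, 17 rose and 1 fell along the order, where 14.2% and 11% of all tested genes did. Their median steps were 0.74 and 0.31 (log2), and 0.50 and 0.41 with 2C::GFP+/SGC replicate 2 left out. By the test of the second step 2 members were higher and 6 lower, where 7.93% and 7.47% of all tested genes were. Tex19.1, a germ cell gene that restrains retrotransposons, had 70.1 and 73.9 CPM in 2C::GFP+, 97.8 and 147 CPM in 2C::GFP+/SGC, and 202 and 178 CPM in 2C::GFP+/SA (slope 0.70 ± 0.09, adjusted p = 0.000908). Slc25a31, the ADP/ATP carrier of germ cells, had 5.06 and 6.91 CPM, then 10.9 and 21.9 CPM, then 31.2 and 30.1 CPM. Tex15, needed in spermatogenesis, had steps of 0.92 and 0.84, while mESC libraries held 22.95 and 30.6 CPM of it. Neither gene's libraries overlapped between neighbouring groups. Smc1b, the meiotic cohesin subunit, was the member with a falling trend, and it moved late: 13.1 and 18.4 CPM, then 15.0 and 18.8 CPM, then 6.23 and 5.86 CPM. Its trend was lost without 2C::GFP+ replicate 2 (adjusted p = 0.113) or either 2C::GFP+/SA library (0.213 and 0.2). Without 2C::GFP+ replicate 1 the count of rising members was 11.

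Steady falls were smaller and tighter. Mras, a RAS-related GTPase, had 74.6 and 69.4 CPM in 2C::GFP+, 38.4 and 34.3 CPM in 2C::GFP+/SGC, and 19.6 and 15.95 CPM in 2C::GFP+/SA. Its steps of -0.98 ± 0.16 and -1.03 ± 0.16 were close to equal (slope -1.004 ± 0.08, adjusted p = 0.00025). Aass (chr6:23072173-23132986), the first enzyme of lysine breakdown, had 41.8 and 38.0 CPM, then 21.6 and 19.0 CPM, then 8.30 and 7.78 CPM, while mESC libraries held 1.31 and 1.26 CPM. Mindy1, a deubiquitinase, had 179 and 162 CPM, then 105 and 85.6 CPM, then 46.8 and 40.4 CPM. Eno3, the muscle form of enolase, had 45.1 and 40.3 CPM, then 22.6 and 14.3 CPM, then 8.06 and 5.16 CPM, which brought it near the 7.34 and 5.88 CPM of mESC. Slc11a1, a metal ion transporter, and Ankrd34a fell by 1.32 and 1.73 per step on the log2 scale. Neighbouring groups overlapped in none of these 6, which was a condition for naming them. Their trends stayed called in every alternative fit and without each single library.

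The pluripotency network held both steady falls and levels that did not move. Of 30 naive pluripotency genes, 12 fell and 3 rose, where 11% and 14.2% of all tested genes did. Sox2 had 485 and 451 CPM, then 380 and 384 CPM, then 246 and 263 CPM along the order, a slope of -0.44 ± 0.07 (adjusted p = 0.00186). Esrrb, an orphan nuclear receptor of naive cells, had 694 and 745 CPM, then 515 and 578 CPM, then 349 and 387 CPM (slope -0.48 ± 0.07, adjusted p = 0.00136). Both showed clear separation of neighbouring groups. Zfp42 (slope -0.43, adjusted p = 0.00733) lost its call without 2C::GFP+ replicate 1, at 0.0824. Pou5f1, encoding OCT4, had 746 and 647 CPM, then 554 and 564 CPM, then 537 and 506 CPM. Its trend was called narrowly (adjusted p = 0.0424) and was lost on leaving out any 1 of the 6 libraries, at adjusted p of 0.0554 to 0.314. With all libraries it was also lost with DESeq2 (0.0551), RLE factors (0.0615), no low-count filter (0.0803), scores 0, 1 and 3 (0.0561) and thinning (0.0593). Nanog had 763 and 627 CPM, then 671 and 612 CPM, then 874 and 604 CPM, with no called trend (adjusted p = 0.771). Fbxo15, an ESC marker of the F-box family, rose: it had 361 and 368 CPM, then 565 and 699 CPM, then 1644 and 849 CPM (slope 0.89 ± 0.13, adjusted p = 0.00257). Manba, the lysosomal beta-mannosidase, fell with the larger step first, -0.70 against -0.37.

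Steady or late falls also ran through metabolic lists. Of 25 sterol synthesis genes, 16 fell and 1 rose, where 11% and 14.2% of all tested genes did. Their median steps were -0.22 and -0.38. Sqle, squalene epoxidase, had 140 and 139 CPM, then 103 and 111 CPM, then 69.3 and 66.7 CPM (slope -0.52 ± 0.07, adjusted p = 0.000913). Fdft1, squalene synthase, had 128 and 124 CPM, then 103 and 99.3 CPM, then 75.8 and 62.8 CPM. Dhcr7, the last reductase of cholesterol synthesis, was the riser, with 162 CPM in 2C::GFP+/SA replicate 1 and 87.5 CPM in replicate 2, and its trend (adjusted p = 0.0489) was lost without each library except 2C::GFP+/SA replicate 2, at 0.0532 to 0.258. Of 22 glycolysis genes, 10 fell and 1 rose, beside the same 11% and 14.2% of all tested genes. Hk2, hexokinase, had 366 and 356 CPM, then 248 and 255 CPM, then 182 and 172 CPM, with steps of -0.52 and -0.51. Pdk1, the kinase that holds back pyruvate dehydrogenase, had 256 and 240 CPM, then 181 and 167 CPM, then 75.0 and 71.1 CPM (slope -0.88 ± 0.10, adjusted p = 0.00047). Slc2a1, the glucose transporter GLUT1, rose at a slope of 0.24 ± 0.06 (adjusted p = 0.0201), a call lost without 2C::GFP+ replicate 1 (0.066) or 2C::GFP+/SA replicate 2 (0.0956). Without 2C::GFP+/SA replicate 1 the counts of falls were 7 in the sterol list and 5 in the glycolysis list, and the sterol count was 10 if either 2C::GFP+ replicate 2 or 2C::GFP+/SA replicate 2 was left out.

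Late risers waited for the second step. Serpine2 (chr1:79794197-79861180), which encodes the protease inhibitor nexin-1, had 14.3 and 14.2 CPM in 2C::GFP+, 17.9 and 17.8 CPM in 2C::GFP+/SGC, and 99.2 and 99.9 CPM in 2C::GFP+/SA. Its second step was 2.48 ± 0.15 (adjusted p = 3.6e-05) and its first 0.32 ± 0.14, and the 2C::GFP+/SGC libraries lay 1.08 ± 0.13 below the midpoint of the outer groups on the log2 scale (adjusted p of the departure = 0.0332). Fbp2, a fructose bisphosphatase of gluconeogenesis, had 3.54 and 4.32 CPM, then 3.30 and 3.74 CPM, then 26.8 and 22.9 CPM. Anxa1, the phospholipid-binding annexin A1, had 6.51 and 7.15 CPM, then 5.64 and 5.602 CPM, then 31.4 and 31.98 CPM. The first 2 groups of Fbp2 overlapped, and in Anxa1 the middle group was the lowest. Fjx1, a secreted regulator of planar polarity in flies, had 10.7 and 8.14 CPM, then 10.9 and 10.0 CPM, then 60.4 and 56.5 CPM. Amotl2, an angiomotin-like partner of YAP, had 97.6 and 76.3 CPM, then 80.8 and 76.2 CPM, then 236 and 228 CPM. Myo1e, an unconventional myosin, had 92.1 and 97.8 CPM, then 81.3 and 75.3 CPM, then 299 and 208 CPM, and its trend was not called (adjusted p = 0.0576).

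p53 targets leaned late. Of 28 tested, 14 rose and 1 fell along the order (14.2% and 11% of all tested genes), and the second step alone was higher in 15, where 7.93% of all tested genes were. Of the 17 that differed among the groups 13 were late, against 1851 of 4736 over all genes. The median steps were 0.02 and 0.70. Plk2, a polo-like kinase, had 28.3 and 33.8 CPM, then 39.1 and 45.5 CPM, then 148 and 217 CPM. Pmaip1, which encodes the death protein NOXA, had 17.4 and 29.4 CPM, then 31.2 and 52.98 CPM, then 178 and 172 CPM and was steady by the rule, with steps of 0.86 and 2.07. Sesn1, a stress-responsive sestrin, fell evenly, with steps of -0.64 and -0.63. The count of rising members was 9 if 2C::GFP+ replicate 2 was left out and also 9 if 2C::GFP+/SA replicate 2 was.

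The 25 primitive endoderm genes tested had median steps of 0.32 and 1.76. Of them, 15 rose and 2 fell, where 14.2% and 11% of all tested genes did. Their 8 steady and 7 late courses lie near the split of all genes, 2591 and 1851. Gata6, the transcription factor that specifies this lineage, had 1.39 and 2.96 CPM, then 1.67 and 3.80 CPM, then 20.8 and 23.1 CPM. Its second step was 3.11 ± 0.46 (adjusted p = 0.00347), and its trend (adjusted p = 0.0124) was not called without 2C::GFP+ replicate 1, at 0.0701. Pdgfra, a receptor that marks the lineage, had 1.33 and 1.85 CPM, then 1.74 and 4.98 CPM, then 19.9 and 31.4 CPM. Lamb1, a laminin chain, rose at both steps: 54.2 and 68.9 CPM, then 91.9 and 102 CPM, then 181 and 243 CPM. In the primed list, Nodal, a ligand of the TGF-beta family, was late, with 113 and 114 CPM, then 111 and 129 CPM, then 262 and 357 CPM. Sox3 was late too, with 105 and 50.6 CPM in 2C::GFP+/SA libraries, against 21.3 and 20.7 CPM in 2C::GFP+/SGC libraries.

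Of 18 fibroblast and matrix genes tested, 12 rose and 2 fell, where 14.2% and 11% of all tested genes did. Ccn2, a matricellular protein and target of YAP and TEAD factors, had 19.0 and 21.2 CPM, then 32.6 and 33.5 CPM, then 180 and 153 CPM. It was steady by the rule, with steps of 0.73 and 2.34, yet departed from the line (adjusted p = 0.0377). The collagen chain Col1a1 had 1.40 and 1.60 CPM, then 4.13 and 2.49 CPM, then 6.64 and 6.55 CPM (adjusted p of the trend = 0.00287). Thy1, a surface marker of fibroblasts, had 7.66 and 6.97 CPM, then 9.50 and 10.5 CPM, then 23.7 and 17.5 CPM (adjusted p = 0.00242). Col1a2 had 0.274 and 0.863 CPM, then 1.30 and 1.24 CPM, then 4.33 and 3.39 CPM (adjusted p = 0.00346). Lum, Postn, Twist2, Col3a1 and Dcn, other markers of these cells, stayed under 0.3 CPM in every library, and Pdgfrb had no called trend. Vim, of the same list, fell, with 632 and 437 CPM, then 381 and 306 CPM, then 282 and 284 CPM. Its slope was -0.46 ± 0.09 (adjusted p = 0.00548). Without 2C::GFP+ replicate 1 the slope was -0.28 and the trend was not called. The summed level of the list was 2110 and 2200 CPM, then 2030 and 1730 CPM, then 1720 and 1640 CPM, so that the sum ran lower while most members rose. The part of such cells in the rises was not tested. Ptprc and Csf1r of blood cells stayed under 0.2 CPM. Of the endothelial list 4 of 10 rose, Tek among them, with 8.71 and 6.17 CPM, then 9.08 and 8.37 CPM, then 26.1 and 41.5 CPM. Of 28 trophoblast genes, 9 rose and 6 fell, beside the same 14.2% and 11% of all tested genes. Krt8, a keratin of simple epithelia, rose with 6.19 and 4.75 CPM, then 7.25 and 7.40 CPM, then 12.04 and 18.03 CPM, and Rhox6, a homeobox gene of placenta and germ cells, rose with 0.398 and 0.370 CPM, then 0.702 and 0.692 CPM, then 3.56 and 3.24 CPM. Plac1, a placental gene, also had a called trend, at 1.05 and 0.617 CPM in 2C::GFP+/SA and under 0.1 CPM in the other libraries. That call was lost without 2C::GFP+/SA replicate 1, where the slope was 2.24. Of the 31-base words of Krt8 and Rhox6, 36% and 23.3% are shared with other genes. Bmp4 was among the 6 that fell, with 43.4 and 40.5 CPM, then 23.8 and 18.6 CPM, then 15.5 and 14.6 CPM (slope -0.74 ± 0.10, adjusted p = 0.000985). Eomes was level, between 5.74 and 6.63 CPM, while Elf5 stayed under 0.3 CPM and Cdx2 under 0.5 CPM in all 6 libraries.

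The late falls included regulators and structural genes. Aurkc, the Aurora kinase of meiosis (chr7:6995300-7003091), had 16.4 and 13.6 CPM in 2C::GFP+, 19.8 and 17.2 CPM in 2C::GFP+/SGC, and 3.30 and 2.08 CPM in 2C::GFP+/SA. The middle group stood 1.51 ± 0.21 above the line (adjusted p = 0.0333), and 67.1% of its 31-base words are shared with other genes. Col5a3, a collagen chain, had 6.61 and 8.26 CPM, then 11.6 and 10.7 CPM, then 1.65 and 1.62 CPM, so that it was highest in the middle group. Nfatc4, a calcium-regulated transcription factor, had 37.1 and 44.0 CPM, then 42.2 and 42.5 CPM, then 10.4 and 7.63 CPM. Sema6c, a semaphorin, had 34.4 and 43.0 CPM, then 39.5 and 31.95 CPM, then 7.55 and 5.78 CPM. Fxyd6, a regulator of the sodium pump, had 121 and 135 CPM, then 106 and 96.6 CPM, then 27.1 and 28.4 CPM. H2afy2, the histone variant macroH2A2, had 31.7 and 29.7 CPM, then 33.2 and 37.2 CPM, then 10.8 and 10.9 CPM. The second step of these 6 genes was called in each, at adjusted p of 0.000371 or lower. No 2C::GFP+/SA library reached any library of the other groups, which was a condition for naming them.

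Only 22 genes (0.11%) departed from the line at an adjusted p under 0.05, 12 with the middle group above it (0.0599%) and 10 below it (0.0499%), while 2200 did so at an unadjusted p under 0.05. DESeq2 called 416 and limma 0, and without 1 library the count lay between 0 and 588: it was 0 without either 2C::GFP+ or either 2C::GFP+/SGC library, 283 if 2C::GFP+/SA replicate 1 was left out and 588 if replicate 2 was. A gene without this call is not shown to follow a straight line. Beside the 12 late genes already given, the set held Ccn2, 2 genes that turned back, Pcx, pyruvate carboxylase, which was higher at the second step (step 1.51 ± 0.15, adjusted p = 0.000306), and 6 further late fallers, of which those outside the gene lists were chosen after their values were seen. Psat1 (chr19:15904678-15947337), an enzyme of serine synthesis, had 212 and 234 CPM, then 278 and 313 CPM, then 107 and 83.5 CPM. Gpt2, the mitochondrial alanine aminotransferase, had 72.1 and 80.2 CPM, then 77.5 and 80.9 CPM, then 27.8 and 23.7 CPM. Psat1 was highest in the middle group, while Gpt2 was level over the first 2 groups. Tead2, a partner of YAP, had 170 and 184 CPM, then 150 and 163 CPM, then 46.4 and 52.5 CPM. Rab11fip4 and Smtnl2 lay 0.92 and 0.74 above the line.

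**Figure D3:**
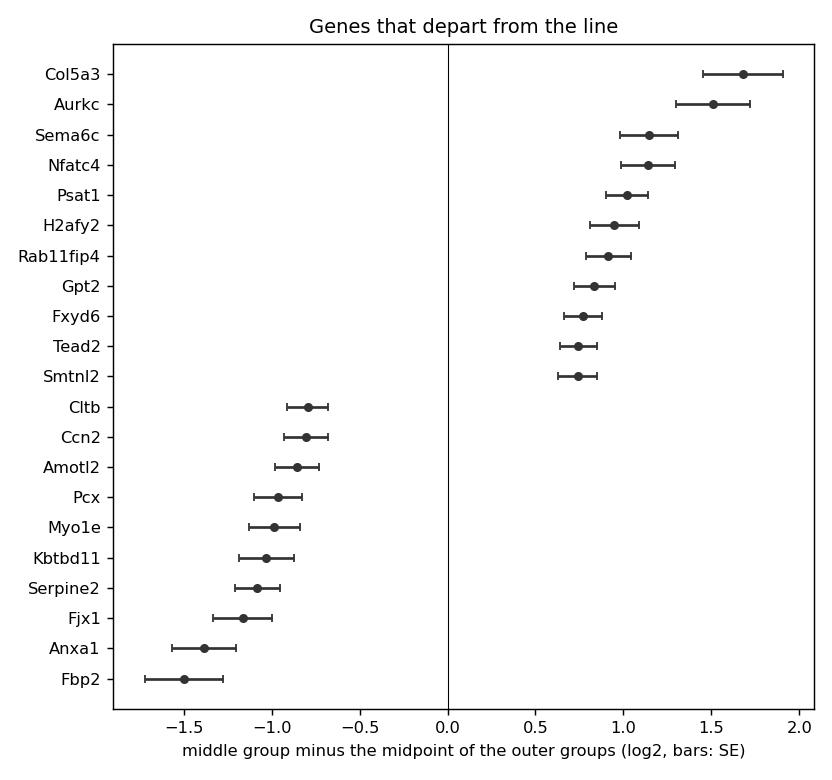
For 21 of the 22 genes that departed from the line, the point gives the distance of the 2C::GFP+/SGC group from the midpoint of the outer groups (log2, bars are SE). Values right of 0 mean that the middle group lay above the line, as for Col5a3 at 1.68, and values left of 0 that it lay below, as for Fbp2 at -1.50.

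Early movers were few, 61 upward (0.304%) and 54 downward (0.269%). None of those eligible for naming had a called departure, so the 12 named are a description of point estimates. The 2C::GFP+/SGC libraries disagreed in the early rises, where replicate 1 over replicate 2 had a median of -0.53 (log2). This median was 0.11 in the early falls and 0.01 over all tested genes. The part of that gap in the count of early rises was not tested. With single libraries left out the early count ran from 44 to 224. Acan (chr7:79053483-79115099), which encodes the proteoglycan aggrecan, had 10.1 and 12.5 CPM in 2C::GFP+, 18.8 and 27.3 CPM in 2C::GFP+/SGC, and 19.9 and 27.7 CPM in 2C::GFP+/SA. It differed among the groups (adjusted p = 0.015), with steps of 1.03 ± 0.25 and 0.05 ± 0.24. Tdrkh, a Tudor protein of the piRNA pathway, had 5.16 and 4.93 CPM, then 10.3 and 11.9 CPM, then 11.8 and 9.02 CPM, with 35.5% of its 31-base words shared with other genes. Nxf3, of the nuclear RNA export family, had 5.06 and 6.66 CPM, then 10.7 and 12.5 CPM, then 11.1 and 13.8 CPM. In all 3 the treated groups overlapped each other. They lay above 2C::GFP+, as the rule for naming required. Adgra2, an adhesion receptor, Greb1l and Tktl2, related to transketolase, had first steps of 1.23, 1.25 and 1.84. Among the early falls, Cbr3, a carbonyl reductase, had 65.1 and 70.8 CPM, then 39.8 and 34.9 CPM, then 38.1 and 46.3 CPM (adjusted p of the 3-group test = 0.00411). Htra1, a secreted serine protease, had 22.8 and 13.5 CPM, then 8.02 and 5.602 CPM, then 9.19 and 6.17 CPM. Ankrd33b, Pqlc1, Soga3 and Zfp951 had first steps between -1.23 and -0.92. Socs3, the feedback inhibitor of STAT3 signalling, was of this kind as well, with 142 and 129 CPM, then 103 and 94.1 CPM, then 113 and 91.4 CPM and a 3-group adjusted p of 0.0485.

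Of the genes that turned back, 76 peaked in the middle group (0.379% of the tested) and 103 had their lowest level there (0.514%), and 2 of the 179 carried a called trend. Kbtbd11 (chr8:15011025-15033333), a BTB and kelch protein, had 44.5 and 45.9 CPM in 2C::GFP+, 36.4 and 25.2 CPM in 2C::GFP+/SGC, and 84.8 and 93.7 CPM in 2C::GFP+/SA, with the middle group 1.03 ± 0.16 below the line (adjusted p = 0.0363). Cltb (chr13:54592401-54611344), a light chain of clathrin, had 93.3 and 82.1 CPM, then 55.0 and 58.7 CPM, then 116 and 106 CPM, and lay 0.80 ± 0.12 below it (adjusted p = 0.0333). These 2 were the only genes among the 179 with a called departure, and both calls were lost without either 2C::GFP+ or either 2C::GFP+/SGC library. The other genes named as turning back had no such call. Exoc3l, Apobec2, Pou4f2 and Pros1, which encodes the anticoagulant protein S, were lowest in the middle group, with second steps of 1.08, 1.32, 0.98 and 1.02.

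The peaks included stress genes. Chac1 (chr2:119351229-119354381), which breaks down glutathione and is a target of ATF4, had 6.67 and 14.9 CPM in 2C::GFP+, 16.4 and 27.1 CPM in 2C::GFP+/SGC, and 4.44 and 4.62 CPM in 2C::GFP+/SA. Its second step was -2.25 ± 0.41 (adjusted p = 0.00911) and its first 1.03 ± 0.39. Nupr1, a stress-induced nuclear protein, had 5.16 and 10.3 CPM, then 10.7 and 12.7 CPM, then 3.08 and 3.70 CPM. Both stood lower in 2C::GFP+/SA than in any library of the other groups. Zan, a sperm protein that binds the egg coat, had 8.22 and 10.5 CPM, then 17.2 and 13.6 CPM, then 4.81 and 5.01 CPM. Tfap2c, a transcription factor of trophoblast and germ cells, had 18.9 and 27.6 CPM, then 32.2 and 47.9 CPM, then 13.1 and 19.2 CPM. Plxnd1, a semaphorin receptor, and Arrb1, an arrestin, completed the peaks with first steps of 0.85 and 0.82. Over the list of 28 integrated stress response genes, the first step was positive in 26 and the second in 10, with medians of 0.25 and -0.46. Over all 20043 tested genes the first step was positive in 10194 and the second in 9975. By the test of the second step 3 members were higher and 12 lower, where 7.93% and 7.47% of all tested genes were. Of the 14 members that differed among the groups, 5 turned back, against 179 of 4736 over all genes. Ddit4, an inhibitor of mTORC1, ran against this, with 41.2 and 61.1 CPM, then 76.2 and 97.9 CPM, then 272 and 212 CPM (slope 1.13 ± 0.12, adjusted p = 0.000808). Dppa3, a maternal factor, had 2.48 and 4.50 CPM, then 7.32 and 10.4 CPM, then 5.09 and 6.55 CPM and differed among the groups (adjusted p = 0.0415), with no called trend (adjusted p = 0.394).

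Genes of the cytokine pathway and of the compounds' targets moved on different courses. Of 25 tested genes of the JAK-STAT3 pathway, 9 fell and 1 rose, where 11% and 14.2% of all tested genes did. Il6ra, the receptor that binds IL6, was the riser, with 9.50 and 8.38 CPM, then 19.9 and 13.6 CPM, then 102 and 46.9 CPM (slope 1.54 ± 0.22, adjusted p = 0.00383). Il6st, which encodes gp130, fell late, with 105 and 124 CPM, then 90.1 and 98.9 CPM, then 31.4 and 36.7 CPM (slope -0.87 ± 0.15, adjusted p = 0.00469). Lifr, the receptor of LIF, fell late too, with 93.5 and 81.5 CPM, then 84.5 and 61.0 CPM, then 37.3 and 42.1 CPM (adjusted p = 0.0039). Bcl3, Socs2 and Tfcp2l1, known STAT3 targets, were steady falls with slopes of -0.81, -0.75 and -0.60. Dot1l had 189 and 205 CPM, then 216 and 210 CPM, then 228 and 270 CPM, and its trend was not called (adjusted p = 0.0852). Kdm5b had 763 and 767 CPM, then 704 and 902 CPM, then 798 and 740 CPM (slope 0.00 ± 0.08, adjusted p = 0.977). Of the 44 compound targets and chromatin regulators, 12 fell, Kdm2b and Ehmt2 among them, and 3 rose, beside the same shares of all tested genes. Kdm6a, a histone demethylase, was the riser named, late, with 103 and 101 CPM, then 107 and 112 CPM, then 188 and 157 CPM. The count of falls in this list was 5 without 2C::GFP+/SA replicate 1, and 6 if either 2C::GFP+/SA replicate 2 or 2C::GFP+ replicate 1 was left out.

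**Figure D4:**
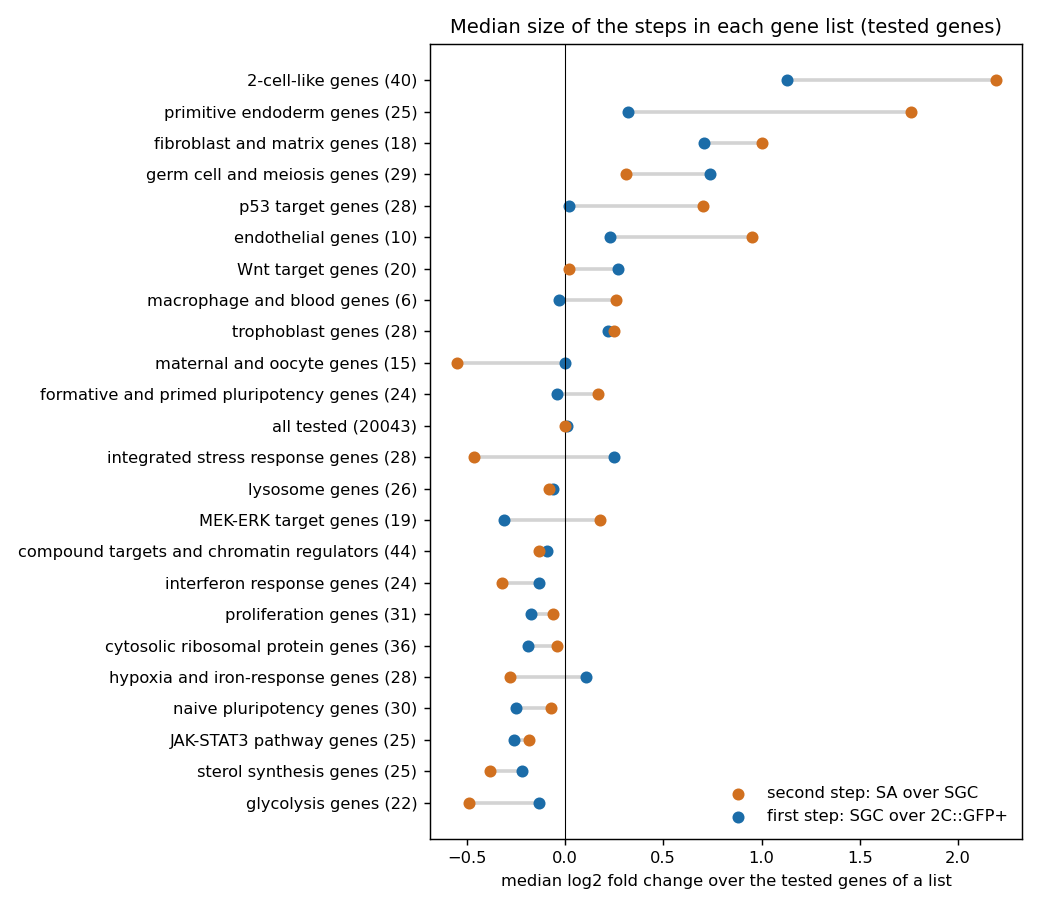
Median log2 fold change of the first step (2C::GFP+/SGC over 2C::GFP+, blue) and of the second (2C::GFP+/SA over 2C::GFP+/SGC, orange) over the tested genes of each list, whose number is in brackets. The 2-cell-like list lies at 1.13 and 2.19, the p53 list at 0.02 and 0.70, and the integrated stress response list lies on opposite sides of 0, at 0.25 and -0.46.

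The shares of the remaining lists lay both above and below those of all tested genes, of which 14.2% rose and 11% fell. Of 28 hypoxia and iron-response genes, 6 fell and 4 rose: Tfrc, the transferrin receptor, fell late, with 647 and 628 CPM, then 621 and 550 CPM, then 406 and 403 CPM, and its trend (adjusted p = 0.00961) was lost without 2C::GFP+/SA replicate 1 (0.0551) or replicate 2 (0.0534). Of 15 maternal and oocyte genes tested, 4 fell and 2 rose. Ooep, of the maternal complex of the egg cortex, fell steadily, with 76.5 and 61.0 CPM, then 44.7 and 38.4 CPM, then 23.3 and 17.6 CPM. Of 31 proliferation genes, 7 fell and 1 rose, with Ccne1, a G1/S cyclin, falling evenly (steps -0.51 and -0.53) and its relative Ccne2 rising late (second step 0.98). Formative and primed genes split into 5 and 3 of 24, Wnt targets into 5 and 2 of 20, MEK-ERK targets into 2 and 4 of 19, lysosome genes into 1 and 4 of 26 and interferon response genes into 1 and 2 of 24. Dkk1, the secreted Wnt antagonist, had 0.0166 and 0.185 CPM in 2C::GFP+, 0.199 and 0.277 CPM in 2C::GFP+/SGC, and 6.78 and 11.6 CPM in 2C::GFP+/SA (adjusted p = 0.000516). On leaving out 1 library these counts moved, as did those over all tested genes, so the shares above do not apply to them. With 2C::GFP+/SA replicate 1 left out, trophoblast rises numbered 4, hypoxia falls 3, proliferation falls 4, Wnt rises 3, primed rises 3, MEK-ERK falls 1, interferon falls 0 and maternal rises 0. With 2C::GFP+/SA replicate 2 left out, trophoblast rises numbered 5, hypoxia falls 3, proliferation falls 4, Wnt rises 3, primed rises 2, MEK-ERK falls 2, lysosome falls 2, interferon falls 1, maternal rises 0 and maternal falls 1. With 2C::GFP+ replicate 1 left out, trophoblast rises numbered 5, hypoxia rises 2, proliferation falls 4, interferon falls 0, maternal rises 0 and maternal falls 1. With 2C::GFP+ replicate 2 left out, hypoxia falls numbered 3, Wnt rises 3, MEK-ERK falls 2 and interferon falls 4. Of 6 macrophage and blood genes tested, 1 rose. Of 36 cytosolic ribosomal protein genes, 1 rose and 2 fell, and 21 fell without 2C::GFP+/SA replicate 1, whose summed level of these genes was 40400 CPM, against 26700 CPM in 2C::GFP+/SA replicate 2.

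**Figure D5:**
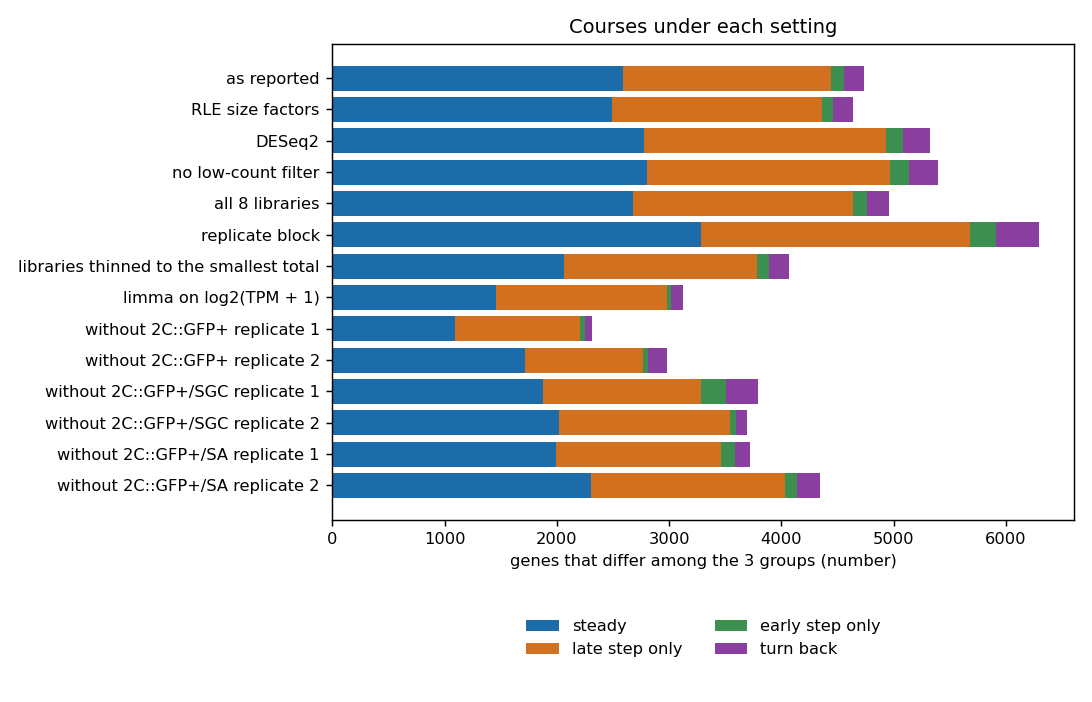
Number of genes with each course (stacked bars) among the genes that differed among the 3 groups, as reported and under each other setting. Steady and late courses make up most of the genes in every bar, and the total is lowest, at 2312 genes, without 2C::GFP+ replicate 1.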

How the data were processed

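Polyadenylated RNA of 8 libraries was measured, and 6 were used in the fits. The submitters' processing notes name STAR 2.7.4a, featureCounts 2.0.0, FastQC 0.11.9 and Trim Galore 0.6.5, and the builds mm10 and GRCm38. For the annotation release, strand setting and multi-mapping reads, nothing is given in the sources used. The deposited gene counts are unnormalized whole numbers. The TPM values were scaled per length and library by the authors and served only in the alternative with limma on log2(TPM + 1).

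Of 55573 genes, 20043 passed filterByExpr over the 6 libraries (0 columns were left out). Counts were scaled by TMM. With edgeR 4.0.16 (R 4.3.3) a robust quasi-likelihood model was fitted to the score (4 residual degrees of freedom) and another to 3 group means (3), with two-sided p-values adjusted by Benjamini-Hochberg over all tested genes. The common biological coefficient of variation was 21.1%. Levels are CPM. The mESC values were scaled with all 8 libraries. Each SE is the estimate divided by the square root of F. Shared 31-base words were counted over GENCODE M21 transcripts (GRCm38). DESeq2 1.42.0 and limma 3.58.1 gave alternatives. The fits were also run on simulated data that varied less than these libraries, so that run does not measure their error rates here. Replicate pairs differed beyond sampling noise (chi-square per degree of freedom 31.3 to 88.7).

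Genes were named by rule: up to 6 per course, with at least 10 CPM in the highest group, no overlap between the groups that differ and predicted models left out. Steady genes were ordered by the smaller step; early, late and turning genes needed a called departure where 3 or more had one. The leading members of 23 lists and fixed genes of the reporter state, pluripotency, the compounds and the cytokines were added. Of 599 listed genes, 593 matched the annotation. The members and lists were chosen with earlier results of these data known. 1 of the genes that departed from the line is not reported here by name.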

Additional observations from a re-analysis of the deposited data

How the results depend on the processing

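Steady and late courses and the second step held their counts within 1.5 times under DESeq2, RLE factors, no low-count filter, a fit with all 8 libraries, the replicate block and thinning to the smallest total (an alternative chosen after seeing the data). Departures numbered 416 with DESeq2, 510 with no filter, 0 with limma, 47 with 8 libraries, 51 thinned, and 0 to 588 without 1 library. The first step held 346 genes with DESeq2, 534 with no filter, and 0 to 456 without 1 library. With limma on log2 TPM, 3317 genes had a trend, 3127 differed among groups, 1458 were steady, 38 early and 108 turned back. Of the steady genes, 739 were late there. A ratio of 0.5 gave 1645 steady, 2789 late, 241 early and 61 turning genes, and 0.2 gave 76 early and 302 turning genes. Without 1 library the counts ranged as follows: trend 2679 to 5054, second step 866 to 3356, 3-group test 2312 to 4344, steady 1090 to 2306, late 1059 to 1721, early 44 to 224, turning 58 to 287. These fits have fewer degrees of freedom.

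The 2C::GFP+ columns could not be tied to numbered labels, and the labels name nothing that libraries of 1 number share, so the numbers were not taken to pair libraries. Deviations of same-numbered libraries correlated at 0.414 (2C::GFP+/SGC and 2C::GFP+), 0.206 (2C::GFP+/SA and 2C::GFP+) and 0.342 (2C::GFP+/SA and 2C::GFP+/SGC), and replicate 1 was the deeper in every group. The replicate block gave 5201 trends, 488 departures in place of 22, 403 first-step genes in place of 0, 235 early and 380 turning genes.

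Of tests of 151 named genes under 15 settings, 1923 kept direction and call, 36 gained and 253 lost the call. Of the 22 departures, 21 were tested as such for single genes (Ccn2 for its trend), and each lost its call without either 2C::GFP+ or either 2C::GFP+/SGC library. In 11 cases with no called trend the slope changed sign. Each is given as slope and adjusted p, with the range of adjusted p without 1 library. Without 2C::GFP+/SA replicate 2, Plxnd1 had 0.02 and 0.983 (0.326 to 0.993). Without 2C::GFP+/SA replicate 1, Arrb1 had 0.23 and 0.552 (0.472 to 0.888), Tfap2c 0.08 and 0.909 (0.352 to 0.909), Pou4f2 -0.16 and 0.594 (0.525 to 0.644), and Nanog -0.09 and 0.524 (0.355 to 0.978). Exoc3l had -0.07 and 0.893 without 2C::GFP+/SA replicate 1 and -0.04 and 0.945 without replicate 2 (0.641 to 0.945). Kdm5b had -0.02 and 0.904 with limma, -0.002 and 0.977 with scores 0, 1 and 3, and -0.004 and 0.984 without 2C::GFP+ replicate 2 (0.833 to 0.988). Cdx2 had -0.07 and 0.94 after thinning (0.674 to 0.942). The cause was not tested. Genes under about 1 CPM are limited by the depth of the replicate 2 libraries.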
